A study of Mus musculus with 11 samples.

Results

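The Ms4a genes described here are Ms4a7, Ms4a4a, Ms4a4c, Ms4a4b, Ms4a6c, Ms4a6b and Ms4a6d, measured in cerebral microglia of aged mice. They were chosen by gene symbol, with earlier results of these data known, and by their presence in a table of 14739 genes. All 7 were in it, and all 7 had a mean normalized count of at least 10 over the 11 libraries and so could be tested; no threshold on a difference was used. The study asked how losing a copy of Csf1r, of Csf2, or of both alters behaviour, brain histopathology and the microglial transcriptome. Csf1r encodes the CSF-1 receptor, on which microglia depend, and Csf2 encodes CSF-2 (GM-CSF), a cytokine that acts on myeloid cells. Each RNA-seq library came from sorted Tmem119+ cells, Tmem119 being a surface protein of microglia, and all mice had a C57BL/6 background. There were 3 wild-type libraries (WT, all at 21 months of age). The Csf1r_het group held 3 Csf1r+/- libraries, at 20, 24 and 21 months for replicates 1 to 3. The Csf2het group held 3 Csf2+/- libraries, all at 21 months. The Dhet group held 2 libraries of mice carrying both alleles (Csf1r+/-; Csf2+/-), at 21 and 24 months. The genotypes are labelled for the mouse and not for a cell type, so blood cells of the heterozygotes carry the alleles as well. The labels do not say how many mice went into a library, so p-values measure the spread between these libraries.

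MS4A proteins are membrane-spanning proteins of the CD20 family, named after the B cell antigen CD20, which Ms4a1 encodes. Several of them sit beside immune receptors in the plasma membrane and alter their signalling. Myeloid cells carry many of the subgroups 4, 6 and 7, and in the brain Ms4a7 is known as a marker that separates border-associated and marrow-derived macrophages from parenchymal microglia. In humans the MS4A region is known as a risk locus for Alzheimer's disease and is tied to the level of soluble TREM2.

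All 7 genes lie in the Ms4a cluster on mouse chromosome 19, where the GENCODE vM21 annotation (GRCm38, the same assembly as the submitters' mm10) lists 19 Ms4a genes, all protein coding; 11 of these were in the deposited table. In order along the chromosome, Ms4a7 (ENSMUSG00000024672.11) spans chr19:11321039-11336146 on the minus strand and Ms4a4a (ENSMUSG00000101389.1) spans chr19:11375523-11392790 on the plus strand. Next come Ms4a4c (ENSMUSG00000024675.19, chr19:11404770-11427246), Ms4a4b (ENSMUSG00000056290.15, chr19:11443553-11463549), Ms4a6c (ENSMUSG00000079419.4, chr19:11469366-11482192) and Ms4a6b (ENSMUSG00000024677.13, chr19:11516512-11531256), all on the plus strand. Ms4a6d (ENSMUSG00000024679.10, chr19:11586604-11604849) closes the row on the minus strand, so that the genes span 283.81 kb.

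These genes are copies of each other to different degrees, which bears on how well their reads can be told apart. Ms4a4b and Ms4a4c matched at 91.7% of 678 aligned coding bases, and Ms4a6b and Ms4a6c at 86.4% of 641. Ms4a6d matched Ms4a6b at 81.8% and Ms4a6c at 79.6%, and the other 17 pairs matched at 60.8% to 69.9%. The authors' counter, kallisto, assigns reads through short words of transcript sequence, by default of 31 bases. Ms4a4a shared 0 of its 806 such words with any other gene, and Ms4a7 shared 1.42%. The shares were 5.47% for Ms4a4b, 7.90% for Ms4a6b, 8.11% for Ms4a6d and 17.1% for Ms4a4c, whose words were shared mostly with Ms4a4b. Ms4a6c stood apart with 58.1%, mostly with BE692007, a gene on the opposite strand that overlaps it (ENSMUSG00000099757.1, chr19:11470166-11484578). No source used here says whether the counting used strand, so reads of Ms4a6c and BE692007 may be mixed. BE692007 held 228.9 to 1153 normalized counts, equal to 4.22% to 15.8% of the Ms4a6c value of the same library.

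Sequence before the start sites is shown because most of these stretches hold the same short word close to the start. PU.1 is the transcription factor that macrophages and microglia depend on, and its binding sites often carry the letters GGAAGT. They read ACTTCC on the other strand and are called the PU.1 core here. The letters alone do not show which factor binds. The stretches below come from RefSeq on GRCm38.p6 and run 5′ to 3′ on the gene's strand, from 250 to 10 bases before the RefSeq start; that of Ms4a6b is cut to 30 bases around its first match. Capitals mark the PU.1 core on either strand.
Ms4a7 (chr19:11336156-11336396, minus strand): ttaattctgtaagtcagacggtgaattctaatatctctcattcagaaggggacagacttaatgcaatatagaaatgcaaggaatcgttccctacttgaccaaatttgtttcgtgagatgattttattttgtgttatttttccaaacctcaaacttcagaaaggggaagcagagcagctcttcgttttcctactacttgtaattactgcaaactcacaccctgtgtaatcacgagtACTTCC
Ms4a4a (chr19:11375238-11375478, plus strand): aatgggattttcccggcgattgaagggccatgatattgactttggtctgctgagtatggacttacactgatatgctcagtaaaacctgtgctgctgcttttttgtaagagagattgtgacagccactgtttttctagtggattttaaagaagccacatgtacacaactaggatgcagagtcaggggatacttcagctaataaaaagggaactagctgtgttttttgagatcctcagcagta
Ms4a4c (chr19:11407411-11407651, plus strand): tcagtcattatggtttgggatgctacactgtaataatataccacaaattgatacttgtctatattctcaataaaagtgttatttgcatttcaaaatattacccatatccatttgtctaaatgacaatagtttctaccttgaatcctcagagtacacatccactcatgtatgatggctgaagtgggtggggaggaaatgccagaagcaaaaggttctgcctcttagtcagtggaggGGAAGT
Ms4a4b (chr19:11443308-11443548, plus strand): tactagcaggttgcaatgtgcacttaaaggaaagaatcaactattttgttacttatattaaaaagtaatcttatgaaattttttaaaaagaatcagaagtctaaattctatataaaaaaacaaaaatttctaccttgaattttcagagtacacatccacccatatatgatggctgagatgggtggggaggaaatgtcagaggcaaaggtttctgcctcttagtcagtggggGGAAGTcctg
Ms4a6c (chr19:11469118-11469358, plus strand): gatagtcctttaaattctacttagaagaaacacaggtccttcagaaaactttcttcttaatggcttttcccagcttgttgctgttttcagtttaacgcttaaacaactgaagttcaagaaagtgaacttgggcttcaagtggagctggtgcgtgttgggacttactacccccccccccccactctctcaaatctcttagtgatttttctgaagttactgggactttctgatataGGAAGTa
Ms4a6b (chr19:11518460-11518489, plus strand): gactttctgatataGGAAGTacaggcacaa

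The RefSeq table held windows for 6 of the 7 genes, with a second start for Ms4a7, and none for Ms4a6d. In the 250 bases before the start, the PU.1 core stood in 5 of the 7 windows, from 5 of the 6 genes, against 19.7% of 32851 windows of the same length. Its first base lay at -15 in Ms4a7 and Ms4a4c, at -19 in Ms4a4b, at -16 in Ms4a6c, and at -85 and -43 in Ms4a6b. Ms4a4a had no match in its window, and whether the core bears on the differences between genotypes was not tested. These windows are not independent of each other: those of Ms4a6b and Ms4a6c were 85.1% identical over 175 aligned bases and shared a run of 48 bases that holds the core, and those of Ms4a4b and Ms4a4c were 80.1% identical over 231. The AP-1 letters TGANTCA matched once, at -81 before the second Ms4a7 start, and 6.75% of all windows held them. No match on either strand was found for the C/EBP letters TTGCNNAA (9.56% of windows), the STAT letters TTCNNNGAA (7.02%) or the interferon response element, searched as 2 copies of GAAA with any 2 bases between them (2.98%). A match of letters is not a bound site, and no match overlapped another. The RefSeq starts of Ms4a4c and Ms4a6b and the second start of Ms4a7 lie inside the gene intervals of the deposited table. Those of Ms4a4b and Ms4a6c lie a few bases inside theirs. The printed Ms4a6b bases fall in a first exon of another annotated transcript.

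**Figure D1:**
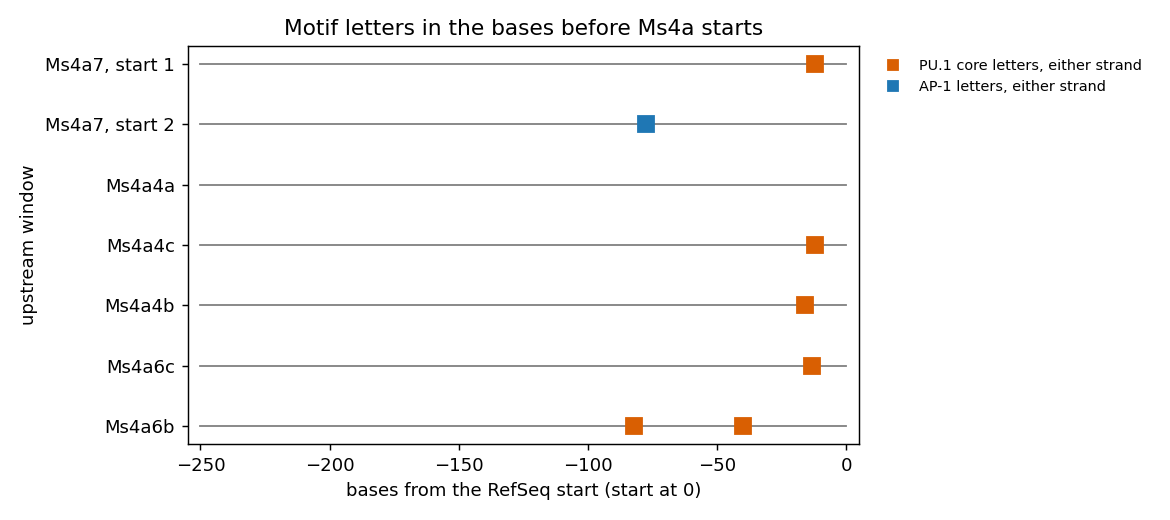
Position of motif letters in the bases before each RefSeq start (horizontal axis, bases from the start, which is at 0), with a line for each window and a square for each match on either strand. Orange squares are the PU.1 core and the blue square is AP-1; in 4 windows the PU.1 core begins between -19 and -15, Ms4a6b holds it at -85 and -43, and the Ms4a4a window has no square.

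Levels below are normalized counts, that is, the authors' gene counts after division by the size factor of the library. Total depth ran from 21037819 to 53081638 reads per library, and haemoglobin genes took 16.1% to 58.8% of the reads. Csf1r read 41261 to 93319 in WT and 53873 to 66762 in Csf2het, against 17017 to 40567 in Csf1r_het and 30254 to 40151 in Dhet, so both groups labelled Csf1r+/- lay below both groups that are not; Csf2 was not analysed here. All 12 homeostatic microglia markers were present. Some libraries stood apart. WT replicate 2 had the lowest Tmem119 (5432, against 15711 or more elsewhere). Csf1r_het replicate 2 had the most haemoglobin reads and 15.6% of genes at 0 (4.98% to 9.88% elsewhere). Dhet replicate 2 read 4.02 for Xist and 717 for the Y-linked gene Ddx3y, against at least 3011 and at most 16.3 in the other libraries. That is the pattern of a male among females, though the labels give no sex. Dhet replicate 2 thus appears to differ from WT in sex as well as in age (24 against 21 months). With 2 Dhet libraries, each Dhet against WT difference of the 7 genes below is given with and without replicate 2; without it, the lone Dhet library is assumed to vary like the other groups.

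Ms4a4a was the member that differed most from WT: its mean was 14.8 times higher in WT than in Csf2het and 17.6 times higher than in Dhet. Ms4a4c and Ms4a6c also fell in Csf2het, with WT means 4.86 and 5.08 times higher, while Ms4a6b, Ms4a6d and Ms4a4b did not pass the test in any comparison. Ms4a7 alone read above every WT library in both groups with 1 altered gene, and it read below every WT library in Dhet. Its levels were low throughout and its differences did not pass the test. The fitted change of Ms4a4b also changed sign between the groups, but each of these groups overlapped WT. The test was limma on log2(normalized count + 1) over 13223 genes, with Benjamini-Hochberg adjusted p under 0.05 counted as a call. Since the 7 genes were chosen with earlier results of these data known, the calls describe them and are not independent evidence for the choice.

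MS4A4A is known from macrophages, where the human protein sits beside the fungal receptor dectin-1, the product of CLEC7A. In WT, Ms4a4a read 10948, 3663 and 5471 normalized counts in replicates 1 to 3. It read 3155, 1262 and 1050 in Csf1r_het, 308, 407 and 642 in Csf2het, and 462 and 298 in Dhet. All 8 heterozygous libraries lay below every WT library, a pattern that 4.74% of genes showed, and Csf2het and Dhet overlapped each other. The group means were 6694 ± 3794 (SD, n = 3) in WT, 1822 ± 1159 (n = 3) in Csf1r_het, 452 ± 171 (n = 3) in Csf2het and 380 ± 116 (n = 2) in Dhet.

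On the fitted log2 scale Ms4a4a fell by 3.80 in Csf2het (SE 0.49, limma adjusted p = 0.00122). It fell by 4.02 in Dhet (SE 0.55, limma adjusted p = 0.0120), where it ranked at place 7 of all genes by p. In Csf1r_het the difference was -1.90 (SE 0.49, 95% interval -2.97 to -0.84, limma adjusted p = 0.0832) and was not called. That last value depended on WT replicate 2, which had the lowest WT reading: without it the difference was -2.26 with an adjusted p of 0.0344. In Dhet the value without replicate 2 was -3.70 (adjusted p = 0.0300), and the call was lost without Dhet replicate 1 (-4.33, adjusted p = 0.0730) or without WT replicate 1 (-3.59, adjusted p = 0.0684). Csf2het against Csf1r_het gave -1.90 (adjusted p = 0.762) and Dhet against Csf2het gave -0.22 (95% interval -1.41 to 0.97), neither called.

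Ms4a4c, a myeloid member that interferon is known to induce, read 4818, 5831 and 2730 normalized counts in WT and 3225, 3826 and 2667 in Csf1r_het. Its values were 698, 1150 and 907 in Csf2het and 1859 and 1754 in Dhet. Csf2het lay below every other library, Dhet lay between Csf2het and the rest, and Csf1r_het overlapped WT. The fitted log2 change in Csf2het was -2.24 (SE 0.33, limma adjusted p = 0.00264). Dhet differed from WT by -1.23 (SE 0.37, adjusted p = 0.240; -1.19 without Dhet replicate 2, adjusted p = 0.380) and lay above Csf2het by a log2 difference with a 95% interval of 0.21 to 1.80 (adjusted p = 0.499), and neither was called. Csf1r_het differed from WT by -0.41 (95% interval -1.12 to 0.30).

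Ms4a6c, which blood monocytes express strongly, had its highest value in WT replicate 2. It read 8566, 23552 and 6841 normalized counts in WT, 6252, 7499 and 6143 in Csf1r_het, 1892, 2542 and 3228 in Csf2het, and 3767 and 3753 in Dhet. Csf2het lay below all other libraries and Dhet lay below all WT and Csf1r_het libraries, while Csf1r_het overlapped WT. In Csf2het the change was -2.16 (SE 0.40, limma adjusted p = 0.0115); it was -1.62 (adjusted p = 0.00619) without WT replicate 2, and the call was lost without Csf2het replicate 1 (-1.96, adjusted p = 0.0711). With the reads of BE692007 added to Ms4a6c, an alternative chosen after seeing the data, the change was -2.11 (adjusted p = 0.0114). Dhet differed from WT by -1.57 (SE 0.45, adjusted p = 0.223; -1.56 without Dhet replicate 2, adjusted p = 0.344) and was not called.

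Ms4a6b, a close copy of Ms4a6c that T cells and myeloid cells both carry, read 5135, 4450 and 4009 normalized counts in WT and 3307, 5699 and 2366 in Csf1r_het. It read 1609, 2622 and 2418 in Csf2het, and 2251 and 2814 in Dhet. Every Csf2het and Dhet library lay below every WT library, but the changes, -1.06 (SE 0.34, limma adjusted p = 0.114) and -0.84 (SE 0.38, adjusted p = 0.484; -1.002 without Dhet replicate 2, adjusted p = 0.496), did not pass the test. Ms4a6d, whose product is known to pair with the macrophage receptor VSIG4, read 3581, 3354 and 3596 in WT, 2343, 4746 and 2352 in Csf1r_het, 2271, 2365 and 2939 in Csf2het, and 2353 and 1562 in Dhet. Its groups overlapped WT or not in the same way as those of Ms4a6b, with changes of -0.48 in Csf2het (adjusted p = 0.489) and -0.87 in Dhet (adjusted p = 0.444; -0.58 without Dhet replicate 2, adjusted p = 0.696). In both genes the highest Csf1r_het value was that of replicate 2, the library with the most genes at 0.

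Ms4a4b is best known from T cells, where its product associates with the receptor GITR. It read 1218, 1542 and 164 normalized counts in WT, 774, 1677 and 737 in Csf1r_het, 234, 433 and 694 in Csf2het, and 1156 and 685 in Dhet. Each heterozygous group overlapped WT, Csf1r_het lay above Csf2het without overlap, and within WT the ratio of the highest to the lowest value was larger than in any other member. The changes against WT were 0.54 in Csf1r_het, -0.71 in Csf2het and 0.40 in Dhet, with limma adjusted p-values of 0.753, 0.687 and 0.902. The signs in Csf1r_het and Dhet turned without WT replicate 3, the lowest WT value, where the changes were -0.48, -1.73 and -0.62, and edgeR and DESeq2 gave -0.11 and -0.09 in Dhet. Without Dhet replicate 2 the Dhet value was 0.77 (adjusted p = 0.837). The interval in Csf2het, -2.29 to 0.86, includes a fall as large as that of Ms4a4c.

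Ms4a7, the marker of border-associated and marrow-derived macrophages, was low. It read 152, 181 and 188 normalized counts in WT, 228, 683 and 320 in Csf1r_het, 220, 279 and 297 in Csf2het, and 9.76 and 63.8 in Dhet. These rest on 164 to 236 reads per WT library and on 13 and 111 reads in Dhet. Every Csf1r_het and every Csf2het library lay above every WT library, as for 8.61% and 11% of genes, and both Dhet libraries lay below all 9 others, which 1.66% of genes showed. The whole pattern, higher in each of the groups with 1 altered gene and lower in Dhet without overlap with WT, was shared by 8 of 13223 genes (0.0605%). The pattern counted is that of Ms4a7 itself and other arrangements were not counted, so this share is a description and not a test.

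None of the Ms4a7 differences passed the test. They were 1.09 in Csf1r_het (SE 0.69, limma adjusted p = 0.470), 0.60 in Csf2het (SE 0.69, adjusted p = 0.727) and -2.72 in Dhet (SE 0.78, adjusted p = 0.221) against WT. Dhet differed from Csf1r_het by -3.81 (adjusted p = 0.263) and from Csf2het by -3.32 (adjusted p = 0.233). The interaction asks whether the effect of both alleles together departs from the sum of their separate effects on the log2 scale; for Ms4a7 it was -4.41 (SE 1.04, 95% interval -6.66 to -2.16, limma adjusted p = 0.0518). Dhet replicate 2 bore on these values. Without it Dhet against WT was -4.01 (adjusted p = 0.0278) and the interaction -5.71 (adjusted p = 0.0174), and Dhet differed from Csf1r_het by -5.10 (adjusted p = 0.0126) and from Csf2het by -4.62 (adjusted p = 0.0248), all resting on the 13 reads of Dhet replicate 1. Without Dhet replicate 1, Dhet against WT and the interaction were -1.42 (adjusted p = 0.851) and -3.12 (adjusted p = 0.162).

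**Figure D2:**
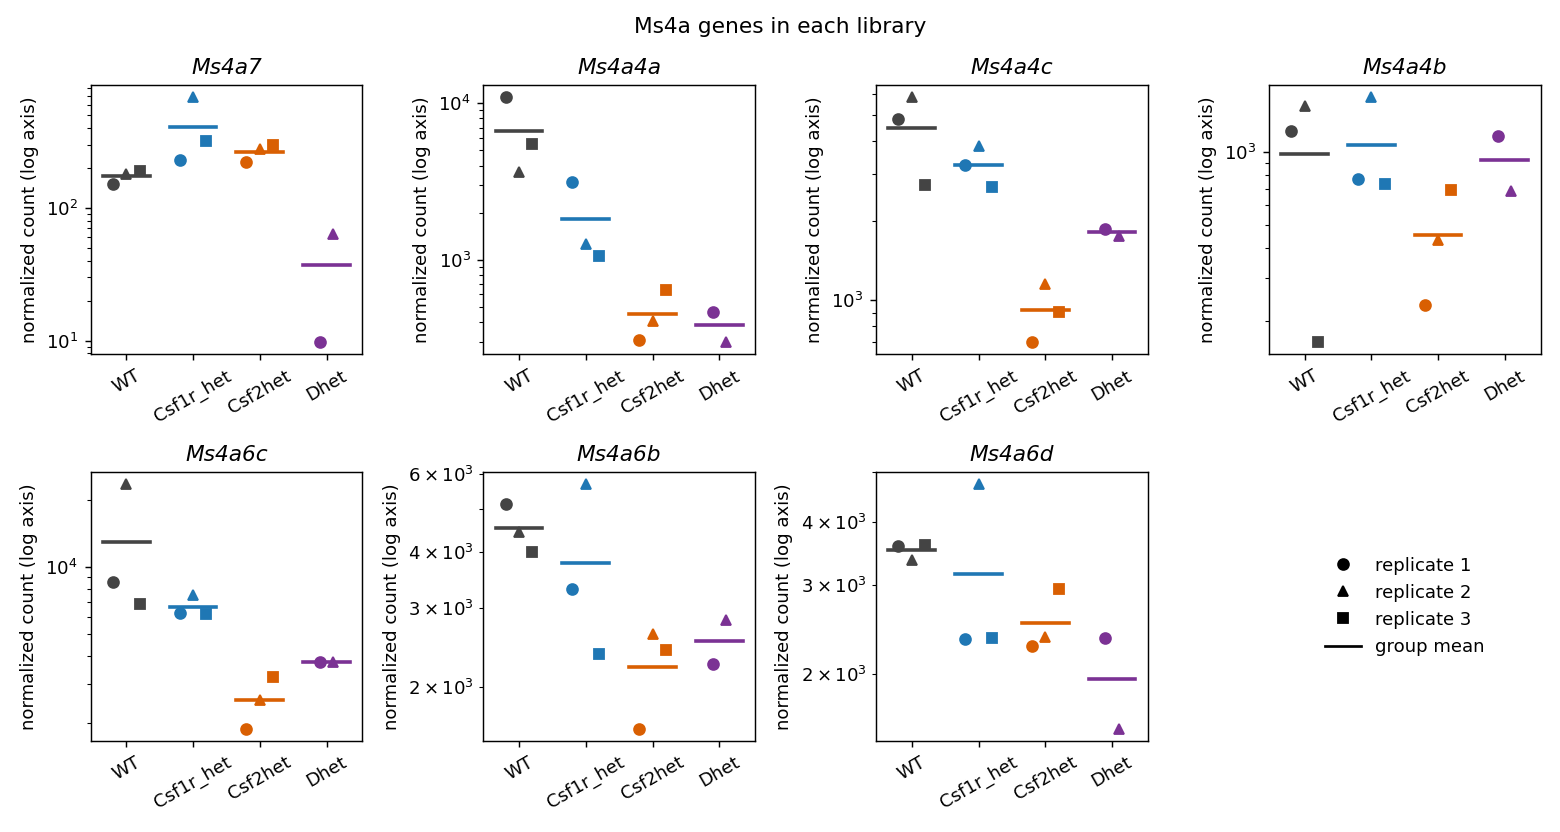
Normalized count of each Ms4a gene in each library (log axis, a separate scale per panel), with groups along the horizontal axis, symbols for replicates 1 to 3 and a line at the group mean. Ms4a4a lies below all WT libraries in all 8 heterozygous libraries, Ms4a4c and Ms4a6c are lowest in Csf2het, and Ms4a7 drops to 9.76 and 63.8 in Dhet.

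Counted over the members, limma called 0 of 7 in Csf1r_het against WT, where 1.32% of all genes were called. At an unadjusted limma p under 0.05 the count there was 1, beside 2139 of all 13223 genes, edgeR called 0 (0.73% of all genes) and DESeq2 called 1, Ms4a4a (6.42%). In Csf2het it called 3 of 7, all lower, where 3.65% of all genes were called and 2.84% were called lower. In Dhet it called 1 of 7, lower, where 0.529% were called and 0.499% lower; without Dhet replicate 2 the count was 2 (174 genes over the table, against 70 with all libraries), and without Dhet replicate 1 or WT replicate 1 it was 0 (2 and 6 genes over the table). The share of members called in Csf2het was larger than that of all genes. The members were chosen with earlier results known, and Ms4a4c and Ms4a6c followed each other (Pearson r = 0.93), so this is a description only. In the other groups the counts are too small to read. The median member difference was -0.35, -1.06 and -1.23 in Csf1r_het, Csf2het and Dhet, beside -0.12, -0.02 and 0.02 for all genes tested. Without regard to the test, 1 member in Csf1r_het, 5 in Csf2het and 6 in Dhet lay below WT with no overlap, against 12.8%, 14.3% and 12.6% of all genes.

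Between the heterozygous groups, and for the interaction, 0 of the 7 members were called by limma. The background was 0.00756% of genes for Dhet against Csf1r_het, 0.0227% for Dhet against Csf2het, 0.0227% for Csf2het against Csf1r_het and 1.85% for the interaction. At an unadjusted limma p under 0.05 the member counts were 3, 2, 3 and 4 of 7 in the same order, beside 1390, 1083, 592 and 2385 of all 13223 genes. edgeR called 0 members in each, with 0.0146%, 0.0219%, 0.0146% and 1.47% of all genes called. DESeq2 called 2, 1, 2 and 1 members, with 0.84%, 1.37%, 0.419% and 7.36% of all genes called. The largest interactions after Ms4a7 were positive: 1.69 for Ms4a4a (adjusted p = 0.251), 1.41 for Ms4a4c (adjusted p = 0.156) and 1.35 for Ms4a6c (adjusted p = 0.265). All comparisons against WT share the same 3 WT libraries.

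**Figure D3:**
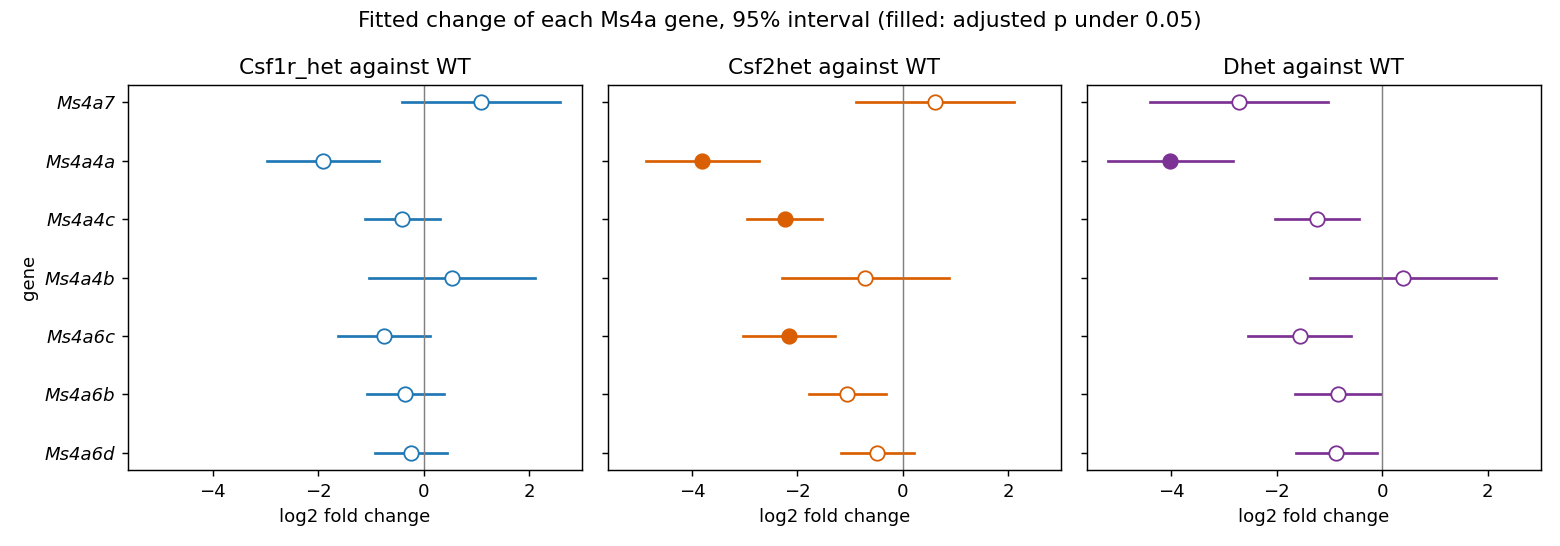
Fitted log2 fold change of each Ms4a gene against WT with its 95% interval, 1 panel per heterozygous group; filled points have a limma adjusted p under 0.05. The filled points are Ms4a4a, Ms4a4c and Ms4a6c in Csf2het and Ms4a4a in Dhet. Ms4a7 turns from 1.09 and 0.60 to -2.72, and Ms4a4b also changes sign (0.54, -0.71 and 0.40).

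Levels can be compared between genes only per length, here as normalized count per kilobase of annotated exon. In WT, Ms4a4a (8007 ± 4538, SD, n = 3) and Ms4a6c (6335 ± 4483) led, followed by Ms4a4c (2547 ± 903), Ms4a6d (2023 ± 78.2), Ms4a6b (1010 ± 127), Ms4a4b (111 ± 82.1) and Ms4a7 (38.9 ± 4.34). Neighbours in this order from Ms4a4a to Ms4a6d overlapped within their SD, as did Ms4a4b and Ms4a7, while Ms4a6d, Ms4a6b and Ms4a4b were separated by more. The longest transcript in place of all exons gave the same order.

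The order was different in the heterozygotes. In Csf1r_het, Ms4a6c (3235 ± 367 per kilobase, n = 3) stood first, with Ms4a4a (2180 ± 1386), Ms4a4c (1850 ± 331) and Ms4a6d (1814 ± 798) next and overlapping. Csf2het was led by Ms4a6d (1455 ± 208, n = 3) and Ms4a6c (1246 ± 326), whose SDs overlapped; Ms4a4a (541 ± 205), Ms4a4c (525 ± 129) and Ms4a6b (494 ± 119) then lay within each other's SD. In Dhet, Ms4a6c (1834 ± 4.53, n = 2) led, Ms4a6d (1128 ± 323) and Ms4a4c (1032 ± 42.4) overlapped, and Ms4a6b (565 ± 88.8) and Ms4a4a (455 ± 138) followed. Ms4a4a, level with Ms4a6c in WT within their SD, thus lay below Ms4a6c, Ms4a6d and Ms4a4c by more than the SDs in Dhet, and Ms4a4b and Ms4a7 stood at the bottom in every group. Ms4a7 read 8.26 ± 8.58 per kilobase in Dhet, against 105 ± 37.9 for Ms4a4b.

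**Figure D4:**
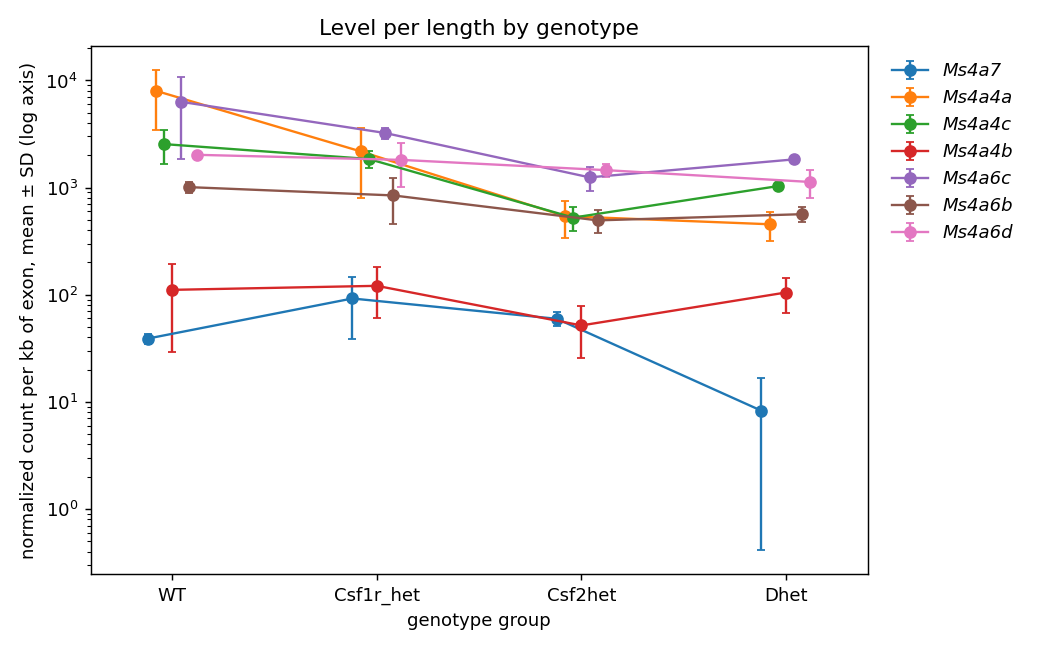
Level per length of each Ms4a gene in each genotype group, as mean ± SD of the normalized count per kilobase of exon (log axis); lines join the means of a gene. Ms4a4a goes from 8007 in WT to 455 in Dhet, while Ms4a6d stays between 2023 and 1128.

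Summed over the members, WT libraries held 23000 to 42573 normalized counts, Csf1r_het 15635 to 25392, Csf2het 7232 to 11125 and Dhet 10931 to 11858. Ms4a4a made up 8.60% to 31.8% of this sum in WT and 2.73% to 3.90% in Dhet. Ms4a6d went the other way in Csf2het, from 7.88% to 15.6% of the sum in WT to 24.1% to 31.4%. The sum was therefore lower in every Csf2het and Dhet library than in any WT library, and its make-up differed as well.

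The libraries also held transcripts known as markers of blood cells, and monocyte markers moved with some of the members. In bulk RNA, fewer cells of a type and less RNA per cell cannot be told apart. Of 10 classical monocyte markers (among them Ccr2, Ly6c2 and Plac8), 1 fell in Csf1r_het, 9 in Csf2het and 0 in Dhet. Their sum was 95883 to 257802 normalized counts in WT, 51071 to 71278 in Csf1r_het, 14612 to 22987 in Csf2het and 74337 to 79725 in Dhet, with WT replicate 2 the highest. Csf2het was thus lowest in these markers as it was in Ms4a4c and Ms4a6c. The order of Dhet differed: it lay above every Csf1r_het library in this sum, but below every Csf1r_het library in Ms4a4c and Ms4a6c.

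Nonclassical monocyte markers were added as a list after the values were seen, because Treml4, a receptor of these patrolling cells, followed Ms4a4a most closely. Of these 10 genes, 4 fell in Csf1r_het, 8 in Csf2het and 6 in Dhet. Treml4 is itself among the 10 and fell in each group, so the likeness of this list to Ms4a4a is in part built in by the choice. Their sum was 49843 to 84940 in WT, 17755 to 20267 in Csf1r_het, 10376 to 11847 in Csf2het and 11524 to 13887 in Dhet, so that, as for Ms4a4a, all heterozygous libraries lay below WT and Dhet lay near Csf2het. Homeostatic microglia markers went in the opposite direction: 0, 3 and 0 of 12 rose, and 0 fell, in Csf1r_het, Csf2het and Dhet, with sums of 123367 to 329225 in WT, 323023 to 375067, 478035 to 624203 and 408535 to 510882. The part of these cells in the Ms4a differences was not tested.

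**Figure D5:**
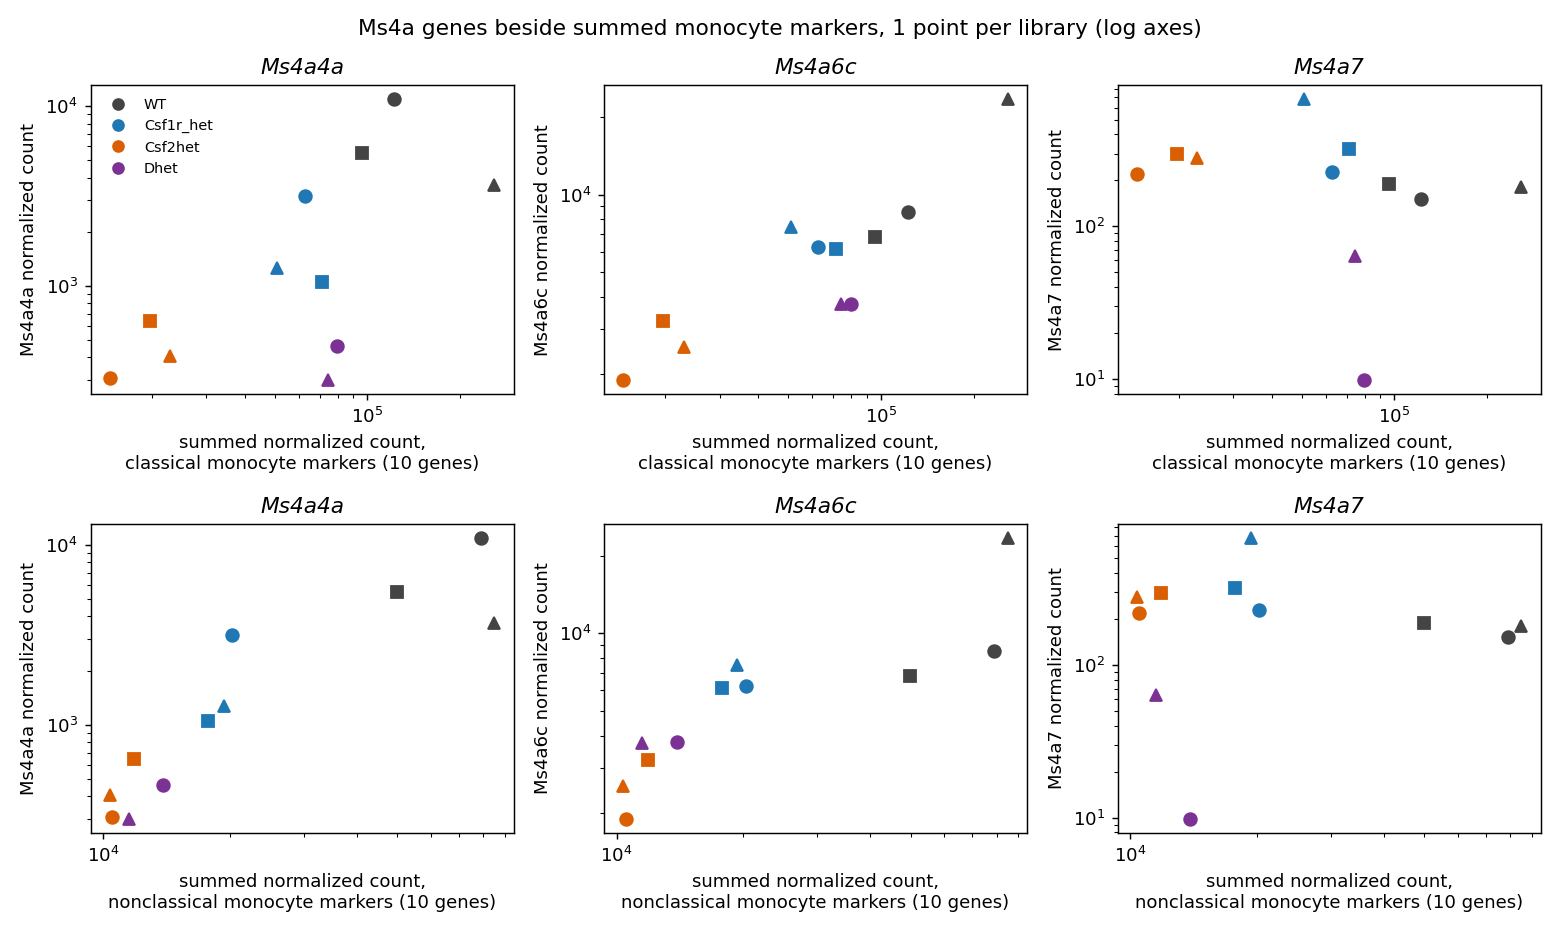
Normalized count of Ms4a4a, Ms4a6c and Ms4a7 (vertical axes) beside the summed normalized count of 10 classical (top row) and 10 nonclassical monocyte markers (bottom row), all log axes, 1 point per library; circles, triangles and squares are replicates 1, 2 and 3. Dhet (purple) lies at 74337 to 79725 of the classical sum with Ms4a4a at 298 and 462, whereas on the nonclassical axis Dhet and Csf2het lie together.

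Border-associated macrophage markers bear on Ms4a7. Of 10 such genes, Mrc1, Cd163, Lyve1 and Siglec1 were not in the table analysed here and 6 were tested, with 0 called in any group against WT. Their sum was 1018 to 2155 in WT, 1785 to 3961 in Csf1r_het, 2442 to 3076 in Csf2het and 2036 to 2554 in Dhet, and Ccl8 was at 0 in WT and Csf2het. In Csf1r_het the highest sum and the highest Ms4a7 value were both those of replicate 2. Dhet, where Ms4a7 was lowest, read within the range of the other groups in this sum. The sum is carried mostly by Stab1, and Pf4, a chemokine of border macrophages, named after its values were seen, had its lowest mean in Dhet and higher means than WT in the other groups, as Ms4a7 did: it was 144 ± 112 in WT (SD, n = 3), 237 ± 112 in Csf1r_het (n = 3), 270 ± 123 in Csf2het (n = 3) and 77.3 ± 75.3 in Dhet (n = 2). Against WT Pf4 differed by 0.86, 1.06 and -1.06, and its interaction was -2.99 (limma adjusted p = 0.213), none of them called. The list as a whole did not share the pattern of Pf4. In Dhet against WT, 2 of the 6 tested genes, Pf4 and Clec10a, had a negative difference. Cbr2, Folr2, Stab1 and Ccl8 had a positive one, and the median was 1.045.

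For the members that lymphocytes also carry, the 12 T and NK cell markers summed to 1379 to 6784 in WT, 3461 to 5952 in Csf1r_het, 1648 to 2515 in Csf2het and 2719 to 3047 in Dhet, with 0 called. The lowest WT sum, 1379, was that of replicate 3, the library with the lowest Ms4a4b value (164), and the highest sums of WT and Csf1r_het were those of replicate 2, which had the highest Ms4a4b in each group. In Csf2het this did not hold: replicate 2 had the lowest sum (1648) with Ms4a4b at 433, and replicate 1, with the lowest Ms4a4b (234), had a sum of 2444. The neutrophil markers summed to 46208 to 779297 in WT, 26391 to 445769 in Csf1r_het, 112728 to 194404 in Csf2het and 668067 to 728294 in Dhet, with 0 of 8 called. The 779297 was that of WT replicate 3, where Ms4a7 read 188. Of the B cell, dendritic cell and mast cell lists, 6 of 7, 3 of 6 and 2 of 7 genes were present and 0 were called. The part of all these cells in the results was not tested.

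Similarity over the 11 libraries gives the same picture in another form; the correlations below are descriptions over libraries that share groups and depth. Ms4a4c and Ms4a6c followed each other most closely among the members (Pearson r = 0.93 on log2 values), and Ms4a7 stood apart with r between -0.10 and 0.46 to the others. Of 10889 genes searched, those nearest to Ms4a4a were Treml4 (r = 0.97), Metrnl (0.96) and S1pr5 (0.96). Nearest to Ms4a6c were Plac8 (r = 0.97), Wfdc17 (0.96) and Fxyd5 (0.96), and nearest to Ms4a4c were the monocyte chemokine receptor Ccr2 (r = 0.95), Ifi211 (0.95) and Epsti1 (0.94), the latter 2 being interferon-induced. Ms4a4b was nearest to Acbd6 (r = 0.91), the lymphocyte receptor Il7r (0.87) and Ifi205 (0.86). For Ms4a6b they were Kri1 (r = 0.94), Tssc1 (0.94) and the death receptor Fas (0.92), for Ms4a6d H2-Q4 (0.90), Safb2 (0.90) and Adcy7 (0.89), and for Ms4a7 Arhgef5 (0.96), Rilp (0.94) and Mblac2 (0.93).

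Other genes of the family did not pass the test. Of 17 listed Ms4a genes and CD20-like relatives, 6 were present and 0 were called in any comparison. Ms4a1, which encodes CD20 of B cells, read 1756, 1844 and 629 normalized counts in WT, 366, 314 and 1250 in Csf1r_het, 338, 232 and 172 in Csf2het and 289 and 992 in Dhet. Csf2het lay below WT without overlap and differed by -2.41 (SE 0.64, limma adjusted p = 0.0567). Ms4a2, the beta chain of the mast cell and basophil IgE receptor, read 5.21 to 20.4 in Csf2het against 26.3 to 187 in WT, a difference of -2.83 (SE 0.97, adjusted p = 0.141). Ms4a3, a gene of granulocyte and monocyte precursors, read 357 and 1579 in Dhet and 0 to 749 elsewhere, with 3.997 against WT (SE 2.14, adjusted p = 0.556). The relatives Tmem176a and Tmem176b were abundant and differed from WT by at most 0.66 in either direction (Tmem176a in Csf1r_het, adjusted p = 0.408).

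Along the chromosome, 12 further genes of the table lay within 250 kb of the Ms4a genes, 11 were tested, and 0 were called in any comparison. Their median difference from WT was -0.56, -0.75 and -0.85 in Csf1r_het, Csf2het and Dhet. BE692007, opposite Ms4a6c, differed by -1.54 in Csf2het (adjusted p = 0.116).

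A further list held 12 genes whose products associate with an MS4A protein or lie on the same receptor routes, and 11 were tested. It gave 1 fall and 1 rise in each of Csf1r_het and Csf2het, and 0 calls in Dhet. Syk, the kinase that dectin-1 and Fc receptors signal through, read 3960, 4485 and 2568 normalized counts in WT, 1057, 852 and 1531 in Csf1r_het, 948, 977 and 913 in Csf2het and 1674 and 1393 in Dhet. It fell by 1.68 on the log2 scale in Csf1r_het (SE 0.31, limma adjusted p = 0.0300) and by 1.92 in Csf2het (SE 0.31, adjusted p = 0.00501); Dhet gave -1.23 (SE 0.35, adjusted p = 0.221), and all 8 heterozygous libraries lay below WT. Trem2, a lipid receptor of microglia, went the other way: 8299, 5582 and 9161 in WT, 19029, 20381 and 25286 in Csf1r_het, 23063, 21832 and 25515 in Csf2het and 19450 and 12258 in Dhet. It rose by 1.51 (SE 0.32, adjusted p = 0.0408) in Csf1r_het and 1.64 (SE 0.32, adjusted p = 0.0133) in Csf2het, and Dhet gave 1.04 (adjusted p = 0.339). The Csf1r_het calls of Syk and Trem2 depended on single libraries. Without WT replicate 1, or without Csf1r_het replicate 3, 0 genes of the table were called in Csf1r_het against WT. The same held in a fit of these groups alone.

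Syk and Trem2 were also called for the interaction, at 2.37 (SE 0.47, adjusted p = 0.0251) and -2.11 (SE 0.48, adjusted p = 0.0427), where 0 members were. Clec7a itself, the partner of MS4A4A, differed from WT by -0.15, -0.37 and 0.28 (adjusted p = 0.858, 0.600 and 0.810), so Ms4a4a fell in Csf2het where Clec7a was not called. Jak2, a kinase that the VSIG4 and MS4A6D pair is known to recruit, differed by -1.39 in Csf2het (SE 0.37, adjusted p = 0.0551) and was not called. Vsig4 was not in the table analysed here, and the GITR gene Tnfrsf18 read 114 ± 28.3 in WT and 86.7 ± 27.2 in Csf2het (n = 3 each), with no call.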

How the data were processed

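RNA of sorted Tmem119+ cells was sequenced in 11 libraries. The authors quantified reads with kallisto 0.43.1 on mm10 and normalized them with DESeq2, per the submitters' processing notes. No version of DESeq2 and no strand setting is given. As deposited, the signal of a gene is its count over the library's size factor. All values were whole multiples of a step per library (100% within 0.02 reads), which gave reads and depth. Counting error and libraries per group limit the precision.

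Groups came from the sample labels. The members, gene lists and tests were chosen with earlier results of these data known; the nonclassical monocyte list and the sum of Ms4a6c with BE692007 were added later. Named genes were the members, the listed relatives, the listed partners and receptor route genes, and the 3 most similar genes per member (mean of at least 50). The BE692007 and library check genes were singled out after their values were seen.

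Genes with a mean of at least 10 were kept (13223; 1516 left out). A limma 3.58.1 fit with a trended prior (R 4.3.3) on log2(value + 1) took in the 4 groups (residual degrees of freedom 7, prior 5.90) for 7 contrasts with two-sided tests; fold changes of low genes are understated. It was tested on simulated data. Alternatives were edgeR 4.0.16 and DESeq2 1.42.0 on the recovered reads, other pseudocounts, filters, scaling, an age covariate, a replicate block and libraries left out. Of the identifiers, 14723 matched GENCODE vM21.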

Additional observations from a re-analysis of the deposited data

Results flagged for a closer look

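Ms4a7 was singled out because the loss of a copy went in opposite directions with and without the other altered gene. Every Csf1r_het library lay above every WT library, and every Dhet library lay below every Csf2het library. The same held for the Csf2 copy, with Csf2het above WT and Dhet below Csf1r_het. Both statements rest on the same interaction, -4.41 on the log2 scale, which missed the threshold (limma adjusted p = 0.0518) and rests on 13 and 111 Dhet reads.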

How the results depend on the processing

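Of 1169 member differences under the alternatives, 1122 kept their direction and side of the threshold. Of the rest, 5 lost a call, 23 gained a call and 0 that were called reversed. A further 19 changed direction without a call in either fit. Leaving out a library of a group not compared cannot change a fold, so part of this agreement was fixed in advance. In Csf2het against WT the 3 calls ranged from 2 to 3 with a library left out and became 4 (Ms4a6b added, adjusted p = 0.0465) without WT replicate 2 and Csf1r_het replicate 2 together. In Csf1r_het against WT the count of 0 became 1 (Ms4a4a) with DESeq2 and without WT replicate 2 and Csf1r_het replicate 2 together, and ranged from 0 to 1 with a library left out. In Dhet against WT the 1 call became 0 in a fit of these groups alone (Ms4a4a, adjusted p = 0.0685), 2 with age as a covariate and 3 with DESeq2, and ranged from 0 to 2 with a library left out. Between the heterozygotes DESeq2 called 2 members in Dhet against Csf1r_het, 1 in Dhet against Csf2het and 2 in Csf2het against Csf1r_het; leaving out a library gave 0 to 1, 0 to 1 and 0. For the interaction, Ms4a7 became a call, making 1, with a pseudocount of 5, a mean of at least 50, libraries centred on their median, age as a covariate, DESeq2, or without WT replicate 2 and Csf1r_het replicate 2 together; leaving out a library gave 0 to 1. Ms4a6c in Csf2het lost its call in a fit of these groups alone (adjusted p = 0.0516). Calls over all genes rose as well in some of the settings above. Without WT replicate 2 and Csf1r_het replicate 2 together they were 583 in Csf1r_het, 953 in Csf2het and 1340 for the interaction. The main fit called 174, 482 and 244 genes in the same order. DESeq2 called 986 genes for the interaction. The cause was not tested.

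Over all genes, DESeq2 called 825, 1232 and 357 in Csf1r_het, Csf2het and Dhet against WT. Fits of 2 groups alone called 0, 330 and 0, beside 174, 482 and 70 in the main fit. In Csf1r_het against WT the count was also 0 without WT replicate 1 and without Csf1r_het replicate 3. Calls of listed marker genes in Csf1r_het were therefore lost in those fits. The labels do not state that replicate numbers pair the libraries. Deviations from the group mean correlated at -0.21 to 0.06 between same-numbered libraries and at -0.20 to 0.31 between others. With 2 or 3 libraries per group such deviations are tied to each other, so this check cannot exclude a pairing. With the replicate number as a block the member calls stayed at 0, 3 and 1 against WT and 0 elsewhere, while calls over all genes went to 28, 256 and 48.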
